A study of Mus musculus with 2 samples.

Results

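The 9 genes described here encode costimulatory receptors of T cells and the ligands that bind them: Tnfrsf9 and Tnfsf9, Tnfrsf4 and Tnfsf4, Tnfrsf18 and Tnfsf18, Icos and Icosl, and Cd28. They were taken by symbol from the 32285 genes of the count tables, and all 9 had counts in both libraries. A T cell that binds antigen needs a second, costimulatory signal to divide and survive, and CD28, which binds CD80 and CD86 on antigen-presenting cells, gives the first of these. ICOS is a relative of CD28 that appears after activation and binds ICOSL. The receptors encoded by Tnfrsf9 (CD137), Tnfrsf4 (OX40) and Tnfrsf18 (GITR) belong to the tumour necrosis factor receptor superfamily, are induced by activation, signal through TRAF adaptors to NF-kappaB, and are known to be abundant on regulatory T cells in tumours.

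The cells came from tumours of CT26, a mouse colon carcinoma line, grown under the skin of wild-type BALB/c mice that were 5 weeks old at the start. The WQ-2101 library came from mice given WQ-2101, which the series title describes as inhibition of the serine synthesis enzyme PHGDH, at 20 mg/kg into the peritoneum daily from a tumour volume of about 100 mm³. The vehicle library came from mice given vehicle, and both tumours were taken on day 17 after implantation. Each group is 1 droplet library of whole tumour suspension, both marked batch 1, and the labels do not say how many mice each holds. There is therefore no test between the groups: every interval given is a 95% interval that covers counting error only and treats the counted molecules as independent, although those of 1 cell are not.

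After filtering, 17378 cells of the WQ-2101 library and 13667 cells of the vehicle library were kept, with medians of 8058.5 and 10736 unique molecules (UMIs) a cell. The libraries shared 73 barcode sequences, 0.402% of those in the WQ-2101 library and 0.508% of those in the vehicle library. Cells were sorted into types by marker genes, none of them a member, and types are called after their gate. The T cell gate held 726 cells of the WQ-2101 library and 628 of the vehicle library, and the macrophage gate held 3605 and 3610 in the same order. The tumour cell gate held 9237 and 6072 cells. Cells that passed more than 1 gate, 961 of the WQ-2101 library and 174 of the vehicle library, were set aside. Ptprc, the leukocyte marker that no gate used, stood at 488 counts per 1000000 UMIs of the type (CPM) in macrophages and 12.95 CPM in tumour cells of the WQ-2101 library, against 424 and 6.49 CPM in the vehicle library. Fscn1, a mature dendritic cell marker kept out of the gates, stood at 1486 CPM in mature dendritic cells of the WQ-2101 library and at 658 CPM in those of the vehicle library.

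The members lie in groups in the genome (GRCm38, GENCODE vM21, all 9 on the plus strand). Tnfrsf9 spans chr4:150914562-150946102, Tnfrsf4 spans chr4:156013843-156016612 and Tnfrsf18 spans chr4:156026164-156028895, so that 9551 bases and no other coding gene separate Tnfrsf4 from Tnfrsf18. On chromosome 1, Cd28 (chr1:60716800-60773359) and Icos (chr1:60977927-61000320) have only Ctla4 as a coding gene between them, and 76244 bases with no annotated gene separate Tnfsf4 (chr1:161395409-161418410) from Tnfsf18 (chr1:161494655-161505290). Tnfsf9 spans chr17:57105325-57107757 and Icosl spans chr10:78069302-78083913. Tnfrsf9 overlaps Camta1 on the other strand, and the sources used here do not say whether counting used the strand. Camta1 stood at 41.3 CPM in macrophages of the WQ-2101 library and at 40.5 CPM in those of the vehicle library, levels close to each other. In tumour cells Camta1 stood at 85.65 and 81.19 CPM, above Tnfrsf9 there (16.5 and 13.55 CPM), so the Tnfrsf9 level in tumour cells is uncertain to that extent. Tnfsf9 overlaps Gm11110 and Tnfrsf18 overlaps Gm16008, also on the other strand, and Icos overlaps Gm37039 on its own strand. Gm11110 stood at 9.44 CPM in WQ-2101 macrophages and 7.42 CPM in vehicle macrophages, and at 7.05 and 4.48 CPM in tumour cells, so the Tnfsf9 levels there are uncertain to that extent.

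Promoter windows of 5 members were found in the RefSeq table (GRCm38.p6). Those of Tnfrsf9 and Tnfrsf18 are shown because these receptors had alike levels across cell types and because Tnfrsf9 has more than 1 annotated start. Capitals mark matches, on either strand, to GGG, any 2 bases, TT, any base and CC (the NF-kappaB letters), to TGANTCA (AP-1) or to GGAAA (the NFAT core). Bases that fall in an exon of any GENCODE transcript were left out of the windows shown. For the second start of Tnfrsf9 only the 30 bases round the NF-kappaB match, which lie in an exon, are printed. The 169 bases of that window outside any exon, with NFAT core matches 180 and 163 bases before the start, are not.
Tnfrsf9 before its first RefSeq start, chr4:150919905-150920154, plus strand: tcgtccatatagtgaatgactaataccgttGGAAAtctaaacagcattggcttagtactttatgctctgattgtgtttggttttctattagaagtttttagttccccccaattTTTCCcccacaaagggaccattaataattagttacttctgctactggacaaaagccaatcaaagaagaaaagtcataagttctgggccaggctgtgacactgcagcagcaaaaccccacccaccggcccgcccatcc
Tnfrsf9 before its second RefSeq start, chr4:150927946-150927975, plus strand: cagagcagctGGGGATTTCCCaggaggccc
Tnfrsf18 before its RefSeq start, chr4:156026072-156026163, plus strand: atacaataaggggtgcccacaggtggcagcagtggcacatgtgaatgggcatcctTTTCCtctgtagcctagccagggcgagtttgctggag
In the 250 bases before a start, the NF-kappaB letters occurred in 4.11% of the 32851 promoters of the table, the AP-1 letters in 6.75% and the NFAT core in 55.6%. The second start of Tnfrsf9 had 2 overlapping NF-kappaB matches, 43 and 42 bases before the start, which also overlap an NFAT core match, and an AP-1 match 15 bases before it. The 4 other members with a window had neither an NF-kappaB nor an AP-1 match in those 250 bases. The assay counts the 3 prime end of a transcript, so it does not tell which start of Tnfrsf9 was used.

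In both libraries each of the 5 receptors was highest in a T cell subset. Foxp3+ T cells, the regulatory class, held the highest level of Tnfrsf9, Tnfrsf4, Tnfrsf18 and Icos, and Foxp3- CD4 T cells that of Cd28. Over all T cells, Tnfrsf9 stood at 435 CPM in the WQ-2101 library and 536 CPM in the vehicle library, below its level in NK cells (675 and 565 CPM), though in the vehicle library the counting intervals overlap. In T cells, Tnfrsf4, which sustains the survival of activated T cells, stood at 285 CPM (262 to 308) in the WQ-2101 library and at 384 CPM (359 to 411) in the vehicle library. Tnfrsf18 stood at 256 CPM (235 to 279) in the WQ-2101 library and at 322 CPM (299 to 346) in the vehicle library. Icos stood at 466 CPM (438 to 496) in the WQ-2101 library and at 414 CPM (388 to 441) in the vehicle library, and Cd28 at 404 CPM (378 to 432) and 342 CPM (319 to 367). The 3 receptors of the tumour necrosis factor receptor family were thus lower, and the CD28 family pair higher, in WQ-2101 T cells, all by less than 1.5-fold. These pooled values mix subsets in unlike shares: Foxp3+ T cells were 35 of the 726 T cells in the WQ-2101 library and 53 of the 628 in the vehicle library. Over the processing alternatives the log2 difference of Tnfrsf4 in T cells ranged from -0.50 to -0.25. Of the 9 members, 7 reached a mean of 5 CPM in T cells and 0 of them differed by 1.5-fold or more in CPM plus 5, where 5.46% of the 9707 genes tested did (2.41% higher and 3.05% lower in the WQ-2101 library). Ifng, by contrast, stood at 380 CPM in WQ-2101 T cells and at 166 CPM in vehicle T cells.

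**Figure D1:**
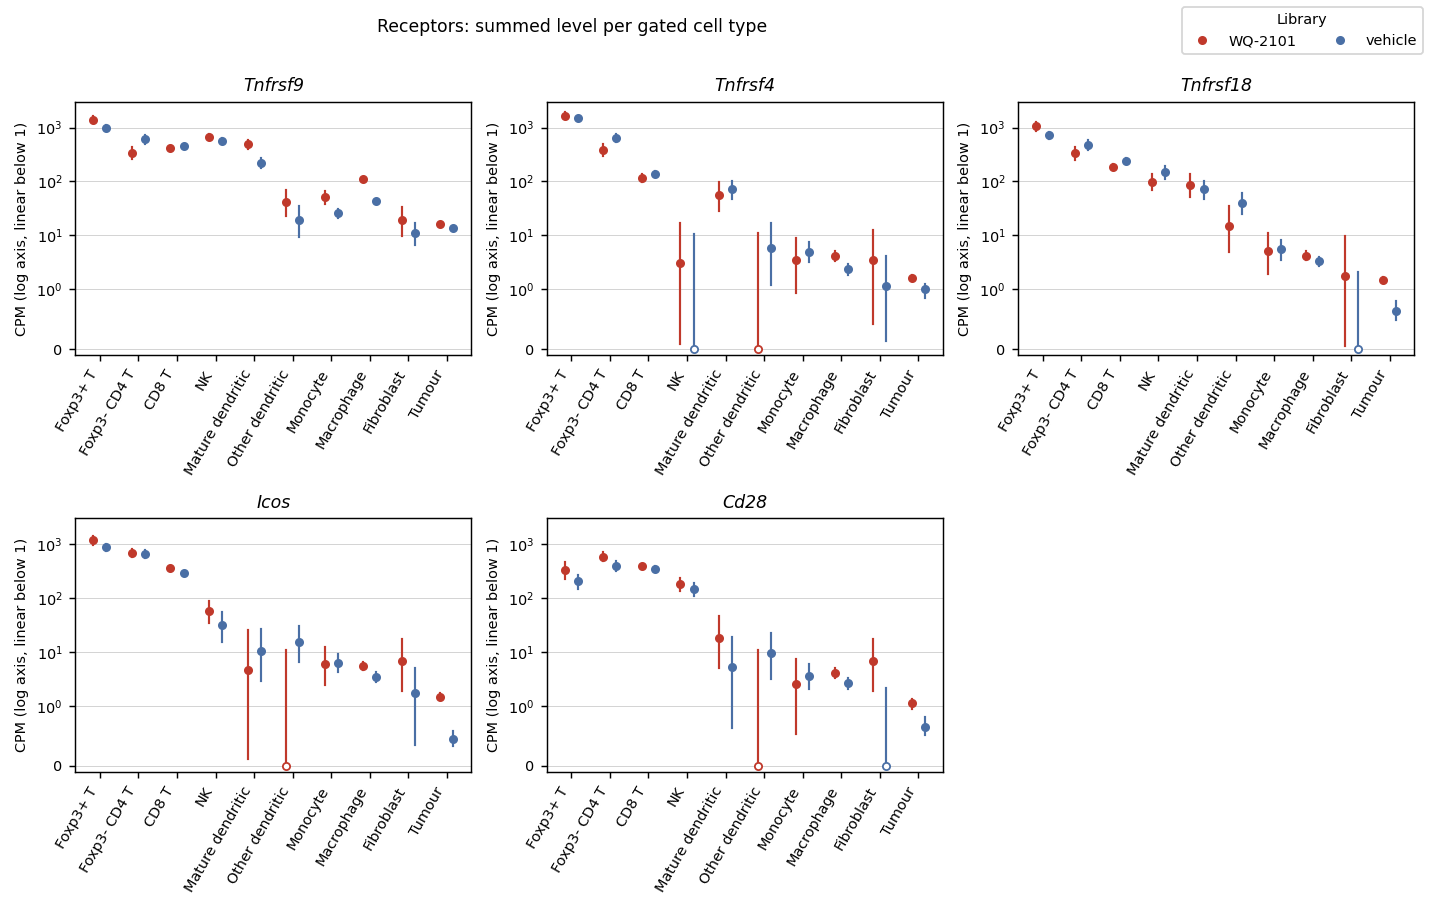
Level of each receptor in 10 gated cell types, in CPM on an axis that is logarithmic above 1 and linear below it, for the WQ-2101 library (red, left) and the vehicle library (blue, right). Points are summed counts, bars are 95% counting intervals and open points are counts of 0. Each receptor is highest in Foxp3+ or Foxp3- CD4 T cells, and in macrophages, monocytes and tumour cells Tnfrsf9 is the 1 receptor above 10 CPM.

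In summed level the T cell subsets differed in direction. In the 35 Foxp3+ T cells of the WQ-2101 library Tnfrsf9 stood at 1409 CPM (1193 to 1654), against 985.5 CPM (859 to 1126) in the 53 of the vehicle library, a ratio of 1.43 (1.15 to 1.77). Tnfrsf18 stood at 1052 CPM in the WQ-2101 library and 717.5 CPM in the vehicle library, a ratio of 1.47 (1.14 to 1.88), and Icos at 1174 and 881 CPM, a ratio of 1.33 (1.06 to 1.68). Tnfrsf4 stood at 1672 CPM in the WQ-2101 library and 1485 CPM in the vehicle library, with a ratio of 1.13 (0.933 to 1.36) whose interval holds 1. All 5 receptors, Cd28 at 329 against 204 CPM included, were higher in the WQ-2101 Foxp3+ cells. With each cell given the same weight, Tnfrsf9 averaged 1410 CPM in the WQ-2101 library and 1431 CPM in the vehicle library, so its difference rests on the cells with many UMIs.

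In the 68 Foxp3- CD4 T cells of the WQ-2101 library the same 3 receptors were lower than in the 67 of the vehicle library. Tnfrsf9 stood at 339 CPM (258 to 438) in the WQ-2101 library and at 601 CPM (499 to 718) in the vehicle library, a ratio of 0.565 (0.407 to 0.777). Tnfrsf4 stood at 385 CPM (299 to 490) in the WQ-2101 library and at 645 CPM (540 to 766) in the vehicle library, a ratio of 0.597 (0.438 to 0.808). Tnfrsf18 stood at 334 and 478 CPM, a ratio of 0.698 (0.495 to 0.977). Icos was close in both, at 690 CPM (572 to 826) in the WQ-2101 library and 670 CPM (562 to 793) in the vehicle library. Cd28 was higher, at 587 CPM (478 to 712) in the WQ-2101 library and 394 CPM (313 to 491) in the vehicle library. After thinning every cell to 1500 UMIs, Tnfrsf4 was seen in 32.8% of these cells in the WQ-2101 library (21.01% to 46.3%) and in 54.1% in the vehicle library (40.9% to 66.9%), while Tnfrsf9 was seen in 32.8% and 34.4%. At this equal depth the share with Tnfrsf9 was close in both libraries, while that with Tnfrsf4 was lower in the WQ-2101 library with intervals that overlap. Unthinned, 42.6% of the WQ-2101 cells and 71.6% of the vehicle cells had a Tnfrsf4 UMI, at medians of 2404.5 and 2701 UMIs a cell. In tumour cells, which should lack the gene, 1.91% of WQ-2101 cells and 1.81% of vehicle cells had one, at medians of 12812 and 16798 UMIs. The Foxp3- CD4 gate asks for no Foxp3 UMI, so regulatory cells whose Foxp3 was not counted could fall in it. In Foxp3+ T cells Foxp3 stood at 469.7 CPM (WQ-2101) and 395.1 CPM (vehicle), at medians of 2246 and 2536 UMIs a cell. The part of such cells in the Foxp3- CD4 differences was not tested. T cells without a subset gate, 276 of the WQ-2101 library and 183 of the vehicle library, had Tnfrsf9 at 332 and 529 CPM, Tnfrsf4 at 354 and 471 CPM, Tnfrsf18 at 247 and 329 CPM, Icos at 508 and 422 CPM, and Cd28 at 418 and 384 CPM.

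The 334 CD8 T cells of the WQ-2101 library and the 303 of the vehicle library were closer to each other. Tnfrsf9 stood at 424.5 CPM (388 to 463) in the WQ-2101 library and at 463 CPM (427 to 502) in the vehicle library, and Tnfrsf4 at 117 CPM (98.0 to 138) and 138 CPM (118 to 159). The intervals of both genes overlap between the libraries. Tnfrsf18 was lower, at 183.5 CPM (160 to 210) in the WQ-2101 library and 238.5 CPM (213 to 267) in the vehicle library. Icos was higher, at 356 CPM (323 to 391.7) in the WQ-2101 library and 290.0 CPM (262 to 321) in the vehicle library, and Cd28 stood at 386 and 353 CPM. Of the 9 members, 8 reached a mean of 5 CPM in CD8 T cells and 0 passed 1.5-fold, against 10.3% of 9564 genes (4.12% higher and 6.18% lower).

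Within CD8 T cells the Icos ratio of the libraries varied between cell states. In cells with at least 2 UMIs of the granzyme genes Gzmc to Gzmf, 47 in the WQ-2101 library and 41 in the vehicle library, Icos stood at 453 CPM (364 to 558) and 209 CPM (154 to 277), a ratio of 2.17 (1.51 to 3.15). In the other CD8 T cells it stood at 337 CPM (301 to 375) in the WQ-2101 library and 307.5 CPM (275 to 343) in the vehicle library. In CD8 T cells with exhaustion markers (Pdcd1, Havcr2, Tox, Lag3, Tigit) and no naive-like ones, 102 and 90 cells, Icos stood at 413 CPM (351 to 482) and 248 CPM (202 to 301). In the naive-like cells, 66 and 63 in number, it was 261 CPM (196 to 340) in the WQ-2101 library and 321 CPM (258 to 395) in the vehicle library. In cells with neither marker set, 121 and 114 in number, it was 410.5 CPM (345 to 484) in the WQ-2101 library and 319.6 CPM (265 to 382) in the vehicle library, a ratio of 1.285 (0.9994 to 1.653). In cells with both sets it was 272.7 and 279.2 CPM. The difference of these ratios between states was not tested. Tnfrsf9 differed more by state than by library: it stood at 922 CPM (793 to 1067) and 901 CPM (782 to 1032) in the granzyme-positive cells of the WQ-2101 and vehicle libraries, and at 325 CPM (291 to 363) and 369 CPM (334 to 407) in the others. The 45 WQ-2101 and 36 vehicle cells with both naive-like and exhaustion markers were the exception, with Tnfrsf9 at 301 CPM (237 to 377) and 537 CPM (447 to 640). Tnfrsf4 did likewise, at 270.0 and 269.8 CPM in the granzyme-positive cells and 86.2 and 109 CPM in the others, with the same exception, at 88.2 CPM (55.3 to 134) in the WQ-2101 cells and 193 CPM (141 to 259) in the vehicle cells with both sets of markers.

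NK cells, 65 of the WQ-2101 library and 52 of the vehicle library, carried Tnfrsf9 at 675 CPM (590 to 770) and 565 CPM (489 to 649). The direction turned with the processing: the log2 difference was -0.24 with stricter gates and -0.185 with cells weighted alike, and thinned to 1500 UMIs 44.6% of the WQ-2101 cells and 56.9% of the vehicle cells had a UMI of it. They carried little or no Tnfrsf4, with 1 UMI in the WQ-2101 library and 0 in the vehicle library, where 3 counts would be 8.51 CPM. Tnfrsf18 stood at 99.5 CPM (68.5 to 140) in the WQ-2101 library and 150 CPM (113 to 197) in the vehicle library, Icos at 57.3 and 31.2 CPM (41.67 and 46.52 CPM with cells weighted alike), and Cd28 at 181 and 145 CPM. The 6 T cell gate markers summed to 356 CPM in WQ-2101 NK cells and 454 CPM in vehicle NK cells, against 4248 and 4234 CPM in T cells. The part of T cell RNA in the Tnfrsf18, Icos and Cd28 values of NK cells was not tested. The median NK cell held 3413 UMIs in the WQ-2101 library and 6759 in the vehicle library.

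Several receptors were seen together in single regulatory cells. At 1500 UMIs a cell, 75.9% of Foxp3+ T cells in the WQ-2101 library (56.5% to 89.7%) and 80.4% in the vehicle library (66.1% to 90.6%) had UMIs of at least 3 of the 5 receptors. The share was 34.5% (22.5% to 48.1%) and 39.3% (27.1% to 52.7%) in Foxp3- CD4 T cells, and 17.6% (13.5% to 22.3%) and 13.2% (9.54% to 17.7%) in CD8 T cells. It was 1.79% and 1.96% in NK cells. The order of the types was the same in both libraries, and the intervals of the libraries overlapped in each type. Cells under 1500 UMIs were left out of these shares.

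Tnfrsf9 was the receptor with the widest spread over cell types. T cells held 12.9% of its UMIs in the WQ-2101 library and 23.4% in the vehicle library, whereas they held 58.2% and 69.3% of those of Tnfrsf4, 62.8% and 68.0% of those of Icos, 61.4% and 65.7% of those of Cd28, and 51.0% and 61.9% of those of Tnfrsf18. Macrophages held 35.6% of all Tnfrsf9 UMIs in the WQ-2101 library and 24.6% in the vehicle library, and tumour cells held 29.4% and 28.6%. Of the UMIs of all genes in kept cells, tumour cells held 127725895 of 175314215 in the WQ-2101 library and 111330173 of 172415379 in the vehicle library. In both libraries this is a larger part than their share of Tnfrsf9 UMIs.

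**Figure D2:**
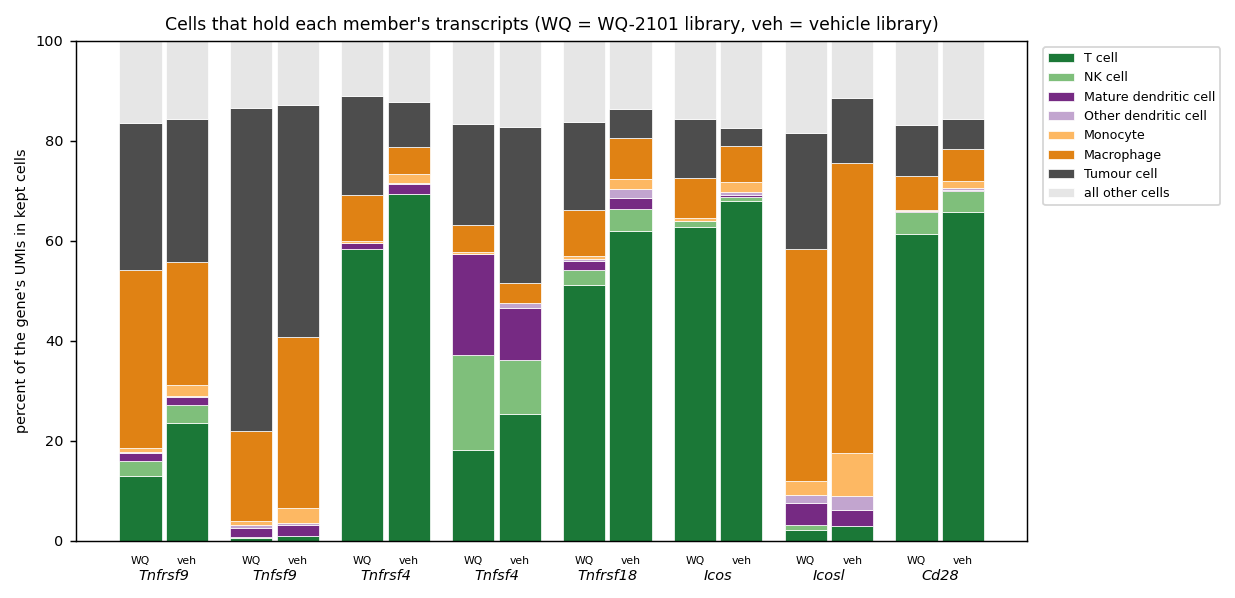
Share of each gene's UMIs, in percent of those in kept cells, held by 7 gated cell types and by all other cells, with the WQ-2101 library (WQ) left of the vehicle library (veh) for each gene. T cells hold over 50% of the UMIs of 4 receptors but 12.9% and 23.4% of those of Tnfrsf9. Tnfsf18 is left out because the libraries held only 7 and 15 of its UMIs.

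In macrophages Tnfrsf9 stood at 111 CPM (106 to 115, 2555 UMIs) in the WQ-2101 library and at 43.4 CPM (41.1 to 45.9, 1299 UMIs) in the vehicle library, a ratio of 2.55 (2.38 to 2.73). It was the 1 member of the 3 that reached a mean of 5 CPM there (with Tnfsf9 and Icosl) to pass 1.5-fold, and it was higher in WQ-2101, as were 1.86% of the 9412 genes tested, with 0.531% lower. At 1500 UMIs a cell, 12.3% of WQ-2101 macrophages (11.2% to 13.4%) and 5.10% of vehicle macrophages (4.39% to 5.88%) had a UMI of it, and unthinned the shares were 25.1% and 14.96% at medians of 6197 and 7848 UMIs. In tumour cells the thinned shares were 2.86% and 1.83%, and unthinned 17.0% and 18.0%. Among monocytes, 258 of the WQ-2101 library and 733 of the vehicle library, Tnfrsf9 stood at 50.8 CPM (38.7 to 65.6) and 25.4 CPM (20.9 to 30.6), a ratio of 1.997 (1.43 to 2.76). Their thinned shares, 3.66% and 2.92%, were close to each other and to those of tumour cells. It was 1 of 5 members that reached 5 CPM in monocytes and the 1 that passed 1.5-fold, against 4.17% of 9158 genes higher and 3.68% lower.

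The macrophage difference was present in each large macrophage cluster, which were formed without the members. In cells led by Mmp13, Mmp12 and Gpnmb, 609 in the WQ-2101 library and 667 in the vehicle library, Tnfrsf9 stood at 243 CPM (228 to 259) and 134 CPM (124 to 144). In those led by Ccl17, Il1r2 and Dcstamp, 1548 and 1634 cells, it stood at 113 CPM (107 to 119.5) and 32.2 CPM (29.2 to 35.3). In those led by the chemokine genes Ccl12 and Ccl8, 837 and 1095 cells, it stood at 27.0 CPM (23.0 to 31.6) and 10.4 CPM (8.41 to 12.6). Within each library the Mmp13 cluster stood highest and the Ccl12 cluster lowest, with intervals that do not overlap. The remaining macrophages fell mostly into 2 clusters that carried other types' genes. A cluster led by Ly6c1, Tm4sf1 and Igfbp6, classed by its markers as tumour cells, held 447 WQ-2101 macrophages at a median of 2530 UMIs and 66 vehicle macrophages at 1008.5 UMIs, with tumour markers at 220 and 114 CPM. Tnfrsf9 stood there at 57.4 CPM (46.1 to 70.6) in the WQ-2101 library and had 0 UMIs in the vehicle library, where the interval reached 32.3 CPM. A cluster with the T cell genes Camk4 and Skap1 among its leading genes held 50 and 52 macrophages with Tnfrsf9 at 192 and 79.1 CPM.

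**Figure D3:**
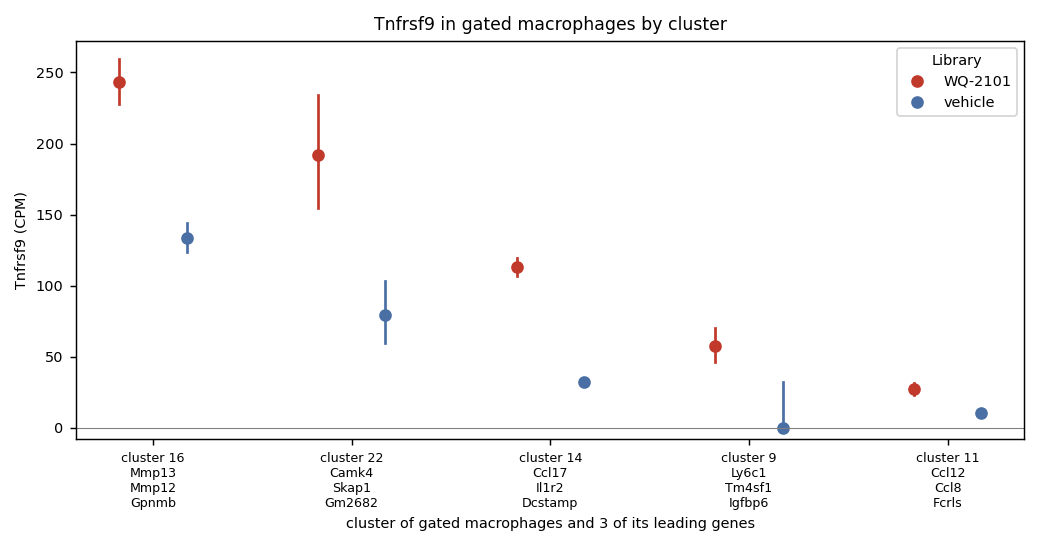
Tnfrsf9 level (CPM, linear axis) in gated macrophages of 5 clusters, each named by 3 of its leading genes, in the WQ-2101 library (red, left) and the vehicle library (blue, right), with 95% counting intervals. In each cluster the WQ-2101 point is the higher, from 243 against 134 CPM in the Mmp13 cluster to 27.0 against 10.4 CPM in the Ccl12 cluster.

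T cell and tumour cell RNA was present in the macrophage gate. The 6 T cell gate markers summed to 23.6 CPM in WQ-2101 macrophages and 17.9 CPM in vehicle macrophages. Scaled to those markers, T cell RNA could bring 0.556% and 0.423% of the T cell levels into them. Tnfrsf9 had 20.3 UMIs for each Icos UMI in WQ-2101 macrophages and 12.6 in vehicle macrophages, against 0.934 and 1.30 in T cells. With RNA of T and tumour cells subtracted by that scale, Tnfrsf9 stood at 107 CPM in the WQ-2101 macrophages and 40.7 CPM in the vehicle ones. Tumour markers summed to 74.7 CPM in WQ-2101 macrophages and 46.9 CPM in vehicle macrophages. In macrophages with no T cell marker UMI, Tnfrsf9 stood at 109.7 CPM in the WQ-2101 library and 43.1 CPM in the vehicle library. In those with no tumour marker UMI it stood at 112.5 CPM in the WQ-2101 library and 40.8 CPM in the vehicle library. Both settings were chosen after seeing the data.

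The other 4 receptors were low in macrophages, and T cell and tumour cell RNA could bring part of each level. Icos stood at 5.46 and 3.44 CPM in WQ-2101 and vehicle macrophages, of which 2.67 and 1.77 CPM could be brought. Tnfrsf4 stood at 4.12 and 2.34 CPM, Tnfrsf18 at 4.201 and 3.31 CPM and Cd28 at 4.07 and 2.61 CPM. In tumour cells these 4 stood between 1.12 and 1.61 CPM in the WQ-2101 library and between 0.440 and 1.02 CPM in the vehicle library. The 6 T cell markers summed to 15.9 CPM in WQ-2101 tumour cells and 6.62 CPM in vehicle tumour cells. With RNA of macrophages and T cells subtracted by marker scale, Icos was left at 0 CPM in tumour cells of both libraries. Cd28 was left at 0 and 0.0801 CPM in the WQ-2101 and vehicle libraries, Tnfrsf4 at 0.456 and 0.395 CPM and Tnfrsf18 at 0.426 and 0.0855 CPM. Whether such RNA accounts for the receptor differences there was not tested.

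Tumour cells carried Tnfrsf9 at 16.5 CPM (15.8 to 17.2) in the WQ-2101 library and 13.5 CPM (12.9 to 14.3) in the vehicle library. With the RNA of macrophages and T cells subtracted it stood at 12.4 CPM in the WQ-2101 library and 12.2 CPM in the vehicle library. Of the 9 members, 2 reached a mean of 5 CPM in tumour cells, Tnfrsf9 and Tnfsf9, and 0 passed 1.5-fold, against 1.46% of 10018 genes (0.998% higher and 0.459% lower).

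Tnfsf9, the ligand of the Tnfrsf9 receptor, is known from activated antigen-presenting cells, and here it was highest in mature dendritic cells. It stood at 220 CPM (162 to 292) in the 59 such cells of the WQ-2101 library and at 129 CPM (95.4 to 171) in the 59 of the vehicle library, a ratio of 1.71 (1.12 to 2.60). Thinned to equal depth, 21.8% of WQ-2101 cells (11.8% to 35.0%) and 22.0% of vehicle cells (12.3% to 34.7%) had a Tnfsf9 UMI. Unthinned, the shares were 32.2% and 35.6%, at medians of 3337 and 6213 UMIs a cell. The higher level was thus not matched by a higher share of positive cells. Most Tnfsf9 UMIs lay elsewhere: tumour cells held 64.6% of them in the WQ-2101 library and 46.6% in the vehicle library, and macrophages held 18.1% and 34.2%. In both libraries tumour cells held a larger part of the UMIs of all genes than of those of Tnfsf9. In macrophages Tnfsf9 was lower in the WQ-2101 library, at 20.1 CPM (18.4 to 22.1) against 25.8 CPM (24.0 to 27.7), a ratio of 0.780 (0.694 to 0.877). By cluster it stood at 15.6 CPM in WQ-2101 and 28.0 CPM in vehicle cells led by Ccl12, at 24.9 and 39.2 CPM in those led by Mmp13, and at 20.96 and 20.6 CPM in those led by Ccl17. In tumour cells it was higher in the WQ-2101 library, at 13 CPM (12.4 to 13.6) against 9.44 CPM (8.88 to 10.0), a ratio of 1.38 (1.27 to 1.49). Macrophages therefore held more of the receptor and less of the ligand in the WQ-2101 library, and 3.50% of WQ-2101 macrophages and 2.55% of vehicle macrophages had UMIs of both. Monocytes carried Tnfsf9 at 15.5 and 15.2 CPM, and T cells at 7.07 and 9.11 CPM. Other dendritic cells, 65 and 79 in number, carried it at 54.1 CPM (32.1 to 85.6) in the WQ-2101 library and 13.4 CPM (5.38 to 27.6) in the vehicle library, on 18 and 7 UMIs. Tnfrsf9 itself stood at 495.5 CPM (406.5 to 598) in mature dendritic cells of the WQ-2101 library and 221 CPM (176 to 274) in those of the vehicle library, and in 11 of 59 and 7 of 59 cells both genes of the pair had a UMI.

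**Figure D4:**
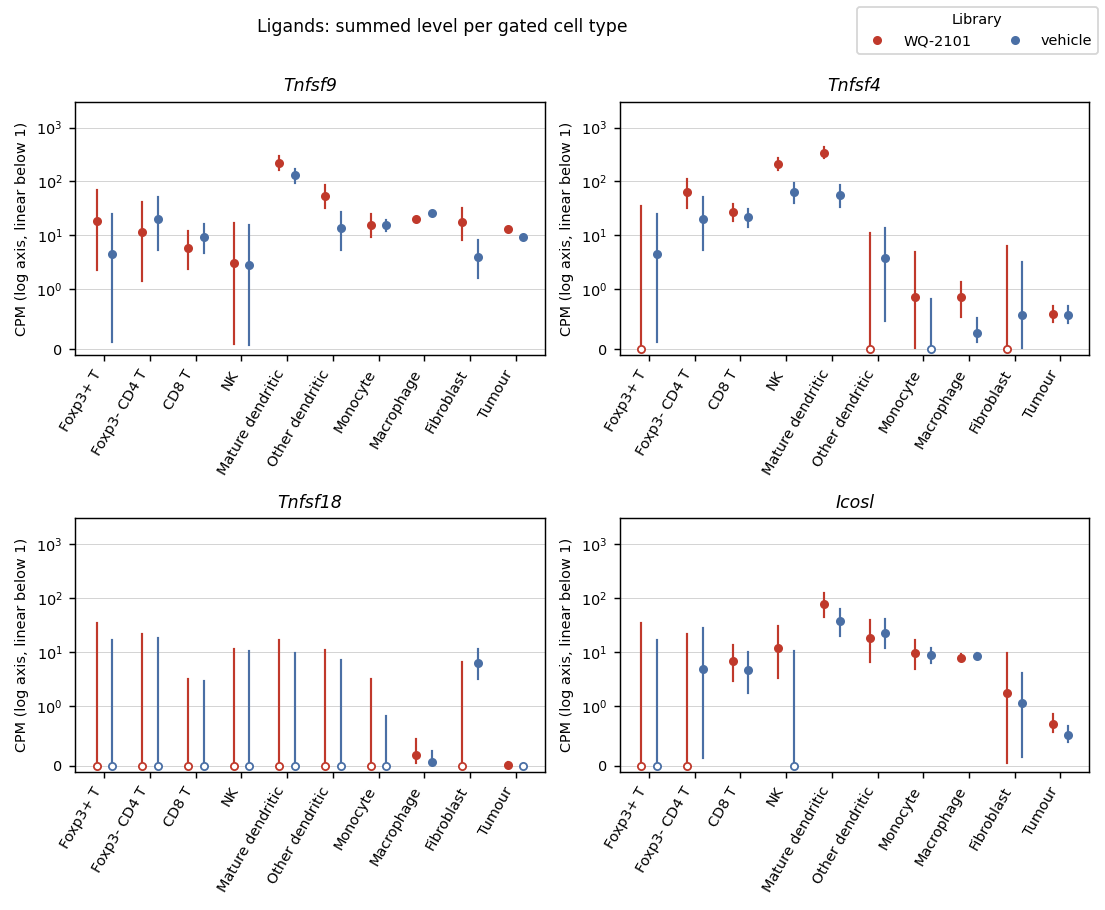
Level of each ligand in 10 gated cell types, in CPM on an axis that is logarithmic above 1 and linear below it, for the WQ-2101 library (red, left) and the vehicle library (blue, right), with 95% counting intervals and open points for counts of 0. Tnfsf9, Tnfsf4 and Icosl peak in mature dendritic cells of the WQ-2101 library, and the Tnfsf4 points differ most between the libraries there and in NK cells.

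Tnfsf4, the ligand of the Tnfrsf4 receptor, had its highest levels in mature dendritic cells and NK cells. Mature dendritic cells held 20.2% of its UMIs in the WQ-2101 library and 10.4% in the vehicle library, NK cells 19.1% and 10.9%, the far more numerous tumour cells 20.2% and 31.2%, and T cells 18.0% and 25.25%. In mature dendritic cells it stood at 339.5 CPM (267 to 426) in the WQ-2101 library, on 74 UMIs in 19 of 59 cells, and at 55.3 CPM (34.2 to 84.5) in the vehicle library, on 21 UMIs in 9 of 59 cells, a ratio of 6.14 (3.74 to 10.5). A single WQ-2101 cell held 19 of the 74 UMIs. Without the cell with the most UMIs in each library, an alternative chosen after seeing the data, the levels were 257 and 45.9 CPM, a ratio of 5.60. Thinned to 1500 UMIs, 32.7% of the WQ-2101 cells (20.7% to 46.7%) and 6.78% of the vehicle cells (1.88% to 16.5%) had a UMI of it, so here the share of positive cells differed as well. In tumour cells the thinned share was 0.109% and 0.0165%. Fscn1, the mature dendritic marker no gate used, differed in these cells in the same direction, while their 4 gate markers summed to 3060 CPM in the WQ-2101 library and 2972 CPM in the vehicle library. In NK cells Tnfsf4 stood at 211 CPM (165 to 267) in the WQ-2101 library, on 70 UMIs in 26 of 65 cells, and at 62.4 CPM (39.1 to 94.5) in the vehicle library, on 22 UMIs in 17 of 52 cells, a ratio of 3.38 (2.07 to 5.73). Thinned to 1500 UMIs, 16.1% of the WQ-2101 NK cells (7.62% to 28.3%) and 11.8% of the vehicle NK cells (4.44% to 23.9%) had a UMI of it, with intervals that overlap. The 4 mature dendritic gate markers summed to 112 CPM in WQ-2101 NK cells and 11.35 CPM in vehicle NK cells, and their part in this difference was not tested.

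NK cells with Gzmc to Gzmf held 62 of the 70 Tnfsf4 UMIs of NK cells in the WQ-2101 library and 21 of the 22 in the vehicle library, at 233 CPM (179 to 299) in 34 WQ-2101 cells and 71.8 CPM (44.4 to 110) in 35 vehicle cells. In granzyme-positive CD8 T cells the ligand stood at 96.8 CPM (58.3 to 151) in the WQ-2101 library, on 19 UMIs in 8 cells, and at 8.70 CPM (1.05 to 31.4) in the vehicle library, on 2 UMIs, a ratio of 11.1 with an interval of 2.68 to 98.5. In the other CD8 T cells it stood at 13.2 CPM in the WQ-2101 library and 24.3 CPM in the vehicle library, and over all CD8 T cells at 27.1 CPM (18.5 to 38.2) and 21.5 CPM (14.3 to 31.1), with intervals that overlap. Over all T cells it stood at 31.1 CPM (24.1 to 39.6) in the WQ-2101 library and 22.1 CPM (16.5 to 29.1) in the vehicle library. T cells without a subset gate had it at 33.7 and 34.0 CPM. Macrophages held 20 UMIs in the WQ-2101 library and 8 in the vehicle library, 0.866 and 0.267 CPM, and tumour cells stood at 0.579 and 0.566 CPM. Of the WQ-2101 mature dendritic cells, 6 of 59 had UMIs of both Tnfsf4 and Tnfrsf4, as did 1 of 59 in the vehicle library. Tnfrsf4 stood at 55.1 CPM (28.5 to 96.2) and 71.1 CPM (46.8 to 103) in these cells.

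Tnfsf18, the ligand of the Tnfrsf18 receptor, was hardly detected. All kept cells held 7 UMIs of it in the WQ-2101 library and 15 in the vehicle library, 0.0399 and 0.0870 CPM. Of the vehicle UMIs, 11 lay in 9 of 153 fibroblasts, at 6.29 CPM (3.14 to 11.3). The 62 fibroblasts of the WQ-2101 library held 0 UMIs, and 3 counts would be 5.19 CPM there, so a difference was not detectable at this depth. Its receptor stood at 87.2 CPM (52.5 to 136) in mature dendritic cells of the WQ-2101 library and 71.1 CPM (46.8 to 103) in those of the vehicle library, besides its levels in T and NK cells.

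Icosl, the ligand of ICOS, was highest in mature dendritic cells, at 78.0 CPM (45.4 to 125) in the WQ-2101 library and 36.9 CPM (20.2 to 61.8) in the vehicle library, on 17 and 14 UMIs, with a ratio of 2.12 (0.982 to 4.64) whose interval holds 1. Macrophages held the largest share of its UMIs, 46.4% in the WQ-2101 library and 58.1% in the vehicle library, at 7.80 CPM (6.70 to 9.02) and 8.59 CPM (7.57 to 9.71). Macrophages led by Ccl12 and Ccl17 carried it at 9.24 and 9.11 CPM in the WQ-2101 library and 10.97 and 8.73 CPM in the vehicle library, and those led by Mmp13 at 4.15 and 3.69 CPM, so the cluster with the most Tnfrsf9 was the one of these 3 with the least Icosl. Monocytes carried 9.47 and 8.63 CPM, B cells 23.2 CPM on 11 UMIs in the 303 WQ-2101 cells and 1 UMI in the 14 vehicle cells, and tumour cells 0.705 and 0.512 CPM. The interval of each of these levels in the WQ-2101 library overlaps that of the vehicle library.

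**Figure D5:**
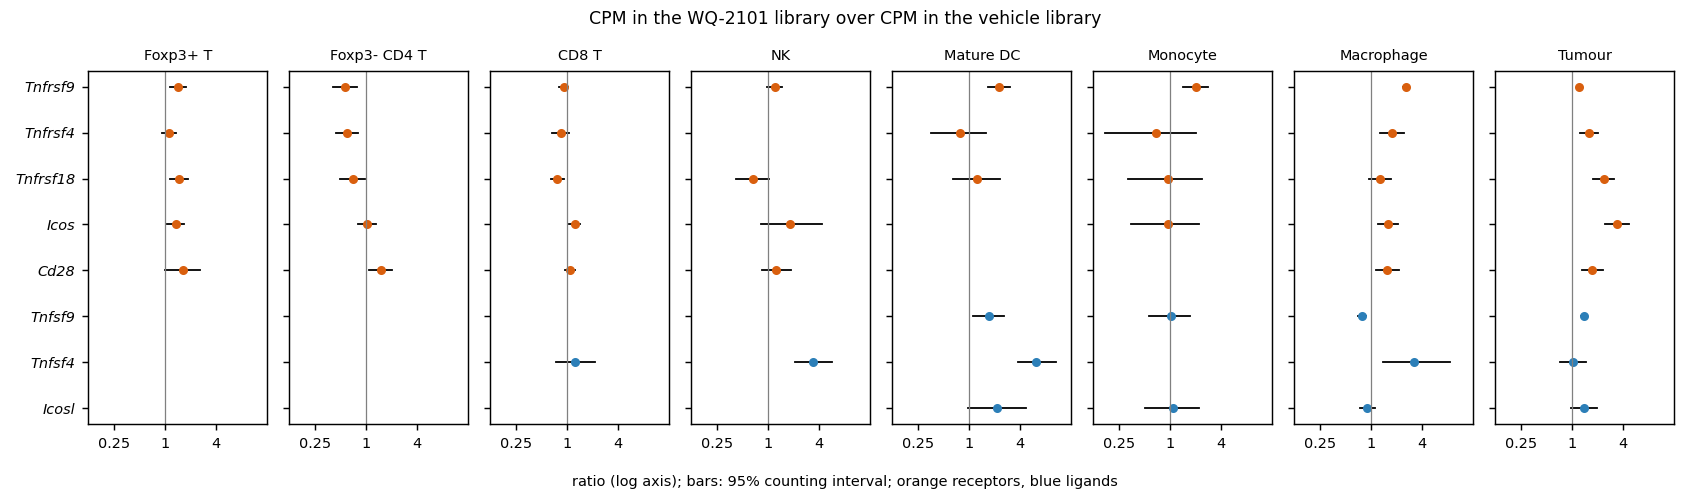
Ratio of the CPM in the WQ-2101 library to that in the vehicle library (log axis) for receptors (orange) and ligands (blue) in 8 gated cell types, with 95% counting intervals, drawn where the libraries together hold at least 20 UMIs. Tnfrsf9 lies at 2.55 in macrophages, 1.997 in monocytes and 0.565 in Foxp3- CD4 T cells, and Tnfsf4 at 6.14 in mature dendritic cells.

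Other genes of costimulation were read from a list of 54 genes. In T cells 48 of them reached 5 CPM, and 4 were higher and 1 lower in the WQ-2101 library by 1.5-fold or more, 10.4% against 5.46% of all genes, with a median log2 difference of 0.08 over the list and -0.02 over all genes. The higher ones were Cd40lg (29.2 against 13.5 CPM), which licenses antigen-presenting cells, the inhibitory receptor gene Btla (43.8 against 25.2 CPM), Pvr (26.4 against 14.3 CPM), a ligand of CD226 and TIGIT, and Ifng. The lower one was Cd70 (2.83 against 9.98 CPM, on 6 and 23 UMIs), the ligand of CD27, while Cd27 stood at 86.7 and 77.2 CPM. Ctla4, which competes with CD28 for its ligands, stood at 310 CPM in WQ-2101 T cells and 342 CPM in vehicle T cells, and Traf1, an adaptor of the Tnfrsf9 receptor, at 229.5 and 263 CPM. In CD8 T cells 4 of 44 were higher (Cd80, Btla, Pvr and Ifng) and 0 lower, 9.09% against 10.3% of all genes. Cd80 stood there at 75.3 CPM in the WQ-2101 library and 44.6 CPM in the vehicle library.

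The list was read in T cells, CD8 T cells, macrophages, monocytes and tumour cells, and not in dendritic cells. Of these types, macrophages and monocytes carried the ligands of CD28 at the highest levels. Cd80 stood at 181.5 CPM in WQ-2101 macrophages and 123 CPM in vehicle macrophages, a ratio of 1.48 (1.42 to 1.55), and Cd86 at 748 and 607 CPM, a ratio of 1.23 (1.21 to 1.26). Of the list, 35 genes reached 5 CPM in macrophages and 0 passed 1.5-fold, against 2.39% of all genes. Cd40 stood at 24.1 and 21.7 CPM and Traf1 at 66.9 and 71.0 CPM, both close between the libraries. In monocytes 1 of 33 was higher, Cd40 at 24.1 against 10.9 CPM, and 3 were lower (among them the adaptor gene Traf2 at 4.31 against 9.54 CPM and the kinase gene Akt1 at 70.6 against 111 CPM), 12.1% against 7.85% of all genes. The Traf2 values rest on 5 and 42 UMIs, with a ratio of 0.451 (0.139 to 1.14) whose interval holds 1. Monocyte Cd80 stood at 236 and 181 CPM and Cd86 at 655 and 522 CPM. In tumour cells Cd86 (12.8 against 6.10 CPM) and Bcl2a1b (22.6 against 13.02 CPM) were higher and Nfkb1 (282 against 426 CPM) lower, 12.0% of 25 genes against 1.46% of all genes. The 8 macrophage gate markers, which are not expected in tumour cells, summed to 164 CPM in WQ-2101 tumour cells and 84.2 CPM in vehicle tumour cells, and their part in the Cd86 and Bcl2a1b values was not tested.

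Across 12 gated types in both libraries (24 points, which share libraries and differ in depth), the receptors were alike in log2(CPM plus 5). Pearson's r was 0.92 between Tnfrsf9 and Tnfrsf18, 0.85 between the neighbours Tnfrsf4 and Tnfrsf18, 0.94 between Icos and Cd28, and 0.91 between Tnfrsf4 and Icos. A receptor and its own ligand were less alike, at 0.02 for Tnfrsf9 and Tnfsf9, 0.32 for Tnfrsf4 and Tnfsf4, and -0.41 for Icos and Icosl, while Tnfsf9 and Icosl were alike at 0.69. Among 10381 other genes, the ones most like Tnfrsf9 were Il2rg (0.95), which encodes the common chain of several interleukin receptors, Cysltr2 and AW112010. The most alike was Cpm for Tnfrsf4 (0.97), followed by Slamf1 and A430093F15Rik, and Cd2 for Icos (0.99), followed by Gm20275 and Cd247. Cd28 was most like Gimap6 (0.99) and Skap1, and Tnfrsf18 most like Rsbn1l, Kdm2b and Limd2. Of the ligands, Tnfsf4 was most like Zfand6 (0.90), Serpinb6b and Gtpbp1, Icosl most like Tbc1d8 (0.89), Mmp25 and Cd40, and Tnfsf9 most like Vmn2r90 (0.87), H2-Eb2 and Bcl2l14. Correlations over few types that separate into lymphoid and other cells are given as a description only.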

How the data were processed

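Whole tumours were dissociated and profiled with a Chromium 3 prime kit, per the labels' protocols. The deposited tables hold raw UMI counts per gene and cell barcode; the authors used Cell Ranger, version 2.2.2 with GRCm38 per the submitters' processing notes and version 7.2.0 per the file headers. The libraries held 185587327 (WQ-2101) and 184754398 (vehicle) UMIs in 18142 and 14374 barcodes. Barcodes with under 500 UMIs or under 300 genes (6 and 22) or with over 15% mitochondrial UMIs (90 and 139) were removed, as were doublets marked by Scrublet within each library (668 and 546, 3.70% and 3.84%).

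A cell passed a gate with at least 2 marker UMIs (1 for other dendritic cells) at or above a set number of marker UMIs per 10000, for instance 10 for T cells, 30 for macrophages and monocytes and 4 for tumour cells. Within a factor of 2 of the T cell cut lay 307 barcodes below and 324 above it. Markers found in several types were dropped from the gates after seeing the data. Dendritic cell, monocyte and other names stand for gates. Members and lists were chosen with earlier results of these data known. Levels are summed counts as CPM, with exact Poisson intervals. Ratios have exact conditional intervals and shares have Clopper-Pearson intervals. A gene was called past 1.5-fold in CPM plus 5, at a mean of at least 5 CPM, in types with at least 100 cells in each library. The floor is 3 counts over a group. Named list genes are those called, plus Cd80, Cd86, Ctla4, Cd40, Cd40lg, Cd27, Cd70 and Traf1; 1 gene that these rules name is not reported here. The calls were checked on simulated data. Alternatives were other gates, Leiden clusters (scanpy 1.11.5, 25 clusters), UMI minimum, doublets, weighting, pseudocount, free RNA and T cell subset shares. Analyses ran in Python 3.11.15.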

Additional observations from a re-analysis of the deposited data

Results flagged for a closer look

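Among T cells, CD8 T cells, macrophages, monocytes and tumour cells, the members below had ratios of WQ-2101 to vehicle on opposite sides of 1. In each of the 2 types the interval excluded 1 and the member reached a mean of 5 CPM, each from 1 library a group. Other gated types, not covered in this list, held such pairs too. For instance, in summed level Tnfrsf9 had a ratio of 1.43 (1.15 to 1.77) in Foxp3+ T cells and 0.565 (0.407 to 0.777) in Foxp3- CD4 T cells. The Foxp3+ side depended on the processing, with a log2 difference from -0.02 to 0.61 over the alternatives. The Foxp3- CD4 side ranged from -0.94 to -0.67. At equal depth, however, 32.8% of WQ-2101 and 34.4% of vehicle Foxp3- CD4 T cells had a Tnfrsf9 UMI, shares close to each other. None of these differences between types was tested. Tnfrsf9 had a log2 difference of 1.26 in macrophages against -0.30 in T cells, 1.55 apart. In monocytes it had 0.87, which is 1.17 from that of T cells, and in tumour cells 0.21, which is 0.51 from it. With RNA of macrophages and T cells subtracted, Tnfrsf9 stood at 12.35 CPM in WQ-2101 tumour cells and 12.18 CPM in vehicle tumour cells. Tnfsf9 had 0.32 in tumour cells against -0.29 in macrophages, 0.61 apart.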

How the results depend on the processing

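No paired analysis was possible because each group is 1 library. Of the recomputed member differences (log2), 434 stayed within the counting error of the value given, 13 moved further and 3 that had been past 1.5-fold changed sign: Icos in NK cells with cells weighted alike (-0.14), Tnfrsf9 in other dendritic cells with stricter gates (-0.13) and Tnfrsf9 in fibroblasts with looser gates (-0.44). The cause was not tested. Tnfrsf9 in NK cells was lower in the WQ-2101 library with stricter gates (-0.24) and with cells weighted alike (-0.19). Tnfrsf9 in macrophages ranged from 1.17 to 1.503 in log2. With stricter gates 1 member value, Tnfrsf18 in monocytes, passed 1.5-fold lower, against 0. Listed genes past 1.5-fold numbered 1 in macrophages with no filter on low values and 2 in Leiden clusters, against 0, 1 in monocytes at a mean of 20 CPM, against 4, and 1 in tumour cells at that mean, against 3. Tnfsf4 was highest in NK cells with Leiden clusters (161 CPM) and in the vehicle library alone (62.4 CPM). Thinning moved 85 shares beyond their interval and left 29 within it. Without CD8 T cells with naive-like markers, a setting chosen after seeing the data, Icos in CD8 T cells had a log2 difference of 0.54. Types under 100 cells in a library, mature dendritic and NK cells among them, limit every value given for them.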
